A study of Homo sapiens with 9 samples.

Results

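The genes described here encode the machinery that licenses and fires origins of DNA replication and copies DNA at the fork. They were chosen by symbol from 12 complexes or steps: 48 genes of the 19775 that had a probe set with exactly 1 gene symbol on the array. Where a gene had several such probe sets, the brightest on average across the 9 arrays stands for it. All 48 were bright enough to enter the tests, which ran across 11250 genes. The rule uses gene names and the mean level, and the list was drawn up with earlier results of these data known.

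The cells were Daudi, a human B-cell line grown out of a Burkitt lymphoma. In that tumour a translocation brings MYC under the control of an immunoglobulin locus. They carried a short hairpin RNA against SLC7A5 (Slc7a5-sh), a hairpin against MYC (C-Myc-sh, the study's positive control) or a control hairpin (Ctrl-sh), and all 3 groups were selected with puromycin for 48 h. The protein SLC7A5 carries leucine and other large neutral amino acids into the cell, and MYC is a transcription factor of growth and proliferation genes. Each group had 3 arrays, labelled as biological replicates. Whether they came from separate infections is not given in the sources used here, so the p-values measure the spread between these samples. The number of hairpins per target is not given there either.

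Replication of a chromosome starts at origins. In G1 phase the origin recognition complex (ORC), with CDC6 and CDT1, loads the MCM2-7 helicase onto DNA, and geminin (GMNN) later blocks a second loading. At the start of S phase the kinase CDC7 with its subunit DBF4 acts on the loaded helicase, CDC45 and the GINS complex join it, and MCM10 helps it to unwind DNA. DNA polymerase alpha with primase then starts each strand, polymerases epsilon and delta extend it, and RFC loads the PCNA clamp that holds them. RPA coats single-stranded DNA, FEN1 and LIG1 join Okazaki fragments, CAF-1 places histones on new DNA, and TIPIN, TIMELESS and CLSPN travel with the fork and protect it. Many of these genes are transcribed at the G1 to S transition under E2F factors, and MYC is known to promote entry into S phase.

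The values are log2 signals of 1 array each, as deposited by the authors. Every array had nearly the same trimmed mean, from which a common scaling was inferred. A log2 change of -1 is a halving of the signal. Levels of different probe sets are not compared, since each binds with its own strength. A scaled signal is relative: in a bulk sample, fewer cells that transcribe a gene and less of its RNA per cell cannot be told apart. Array medians lay between 6.05 and 6.26, and the correlation between replicate arrays, taken over the tested genes, was 0.972 to 0.977. Of 8 listed B-cell markers 7 were measured, all above the level a gene needed to be tested (5.77) in all 3 groups. Of 8 T and NK cell markers 1 reached that level, CD3E, at group means up to 6.52. The summed linear signal of the B-cell markers was 31762 to 32056 on Slc7a5-sh arrays, 47333 to 50509 on C-Myc-sh arrays and 33817 to 37415 on Ctrl-sh arrays. Myeloid markers reached the level in 0 of 7 in Slc7a5-sh cells, 1 of 7 in C-Myc-sh cells and 2 of 7 in Ctrl-sh cells. Epithelial and fibroblast markers reached it in 4 of 8 in Slc7a5-sh cells, 3 of 8 in C-Myc-sh cells and 3 of 8 in Ctrl-sh cells, with a summed linear signal of 619 to 722, 507 to 731 and 714 to 917 in that order. The brightest of these, the collagen gene COL1A1, was called lower in both knockdowns, at -0.71 in Slc7a5-sh cells and -0.59 in C-Myc-sh cells, and their part in the results was not tested.

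The targeted genes were lower with their own hairpins. MYC had log2 signals of 12.90, 12.79 and 12.93 in Slc7a5-sh cells, 12.12, 12.14 and 12.13 in C-Myc-sh cells and 13.16, 13.26 and 13.24 in Ctrl-sh cells. The log2 change was -1.09 in C-Myc-sh cells (SE 0.06, adjusted p = 4.7e-10), which left 46.9% of the Ctrl-sh signal, and -0.35 ± 0.054 (SE, adjusted p = 0.000381) in Slc7a5-sh cells. SLC7A5 had 11.86, 11.84 and 11.95 in Slc7a5-sh cells, 11.79, 11.78 and 11.84 in C-Myc-sh cells and 12.06, 12.35 and 12.21 in Ctrl-sh cells, a log2 change of -0.32 ± 0.071 (SE, adjusted p = 0.00414) in Slc7a5-sh cells, which left 80% of the Ctrl-sh signal, and -0.41 ± 0.071 (SE, adjusted p = 0.000186) in C-Myc-sh cells. Both genes were therefore lower with either hairpin, and for SLC7A5 the direct difference between the hairpins did not pass the test (log2 -0.085, 95% interval -0.24 to 0.068).

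In Slc7a5-sh cells a part of the replication machinery fell, with CDC45 the lowest gene and GINS the complex with the lowest median, and in C-Myc-sh cells most of it fell. Of the 48 genes 20 were called lower and 1 higher in Slc7a5-sh cells (adjusted p under 0.05 in limma), while 11.0% of all tested genes were called lower there and 14.3% higher. In C-Myc-sh cells 41 were called lower and 0 higher, against a background of 26.2% lower and 28.7% higher. At an unadjusted p under 0.05 the count of higher genes in C-Myc-sh cells was also 0. The median log2 change over the 48 genes was -0.21 in Slc7a5-sh cells and -0.66 in C-Myc-sh cells, and that over all tested genes was 0.03 and 0.04. The 3 Ctrl-sh arrays serve both comparisons, so the 2 sets of values are not independent.

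The median of the 48 genes relative to the mean of the Ctrl-sh arrays was -0.21, -0.20 and -0.20 on the Slc7a5-sh arrays, -0.72, -0.65 and -0.67 on the C-Myc-sh arrays and -0.0056, -0.0039 and 0.0037 on the Ctrl-sh arrays themselves. The 3 arrays of each knockdown lay close together, and the groups did not overlap in this median. For single genes, all 3 Slc7a5-sh arrays lay below all 3 Ctrl-sh arrays in 27 of 48 and above them in 3, and over all tested genes in 18.0% and 21.8%. All 3 C-Myc-sh arrays lay below all Ctrl-sh arrays in 43 of 48 and above them in 0, and over all tested genes in 29.1% and 33.2%. In C-Myc-sh cells 15 of the 48 genes were at or below a log2 change of -1, and in Slc7a5-sh cells 0 were. The share of all tested genes at or below that change was not counted, so these counts have no background beside them.

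**Figure D1:**
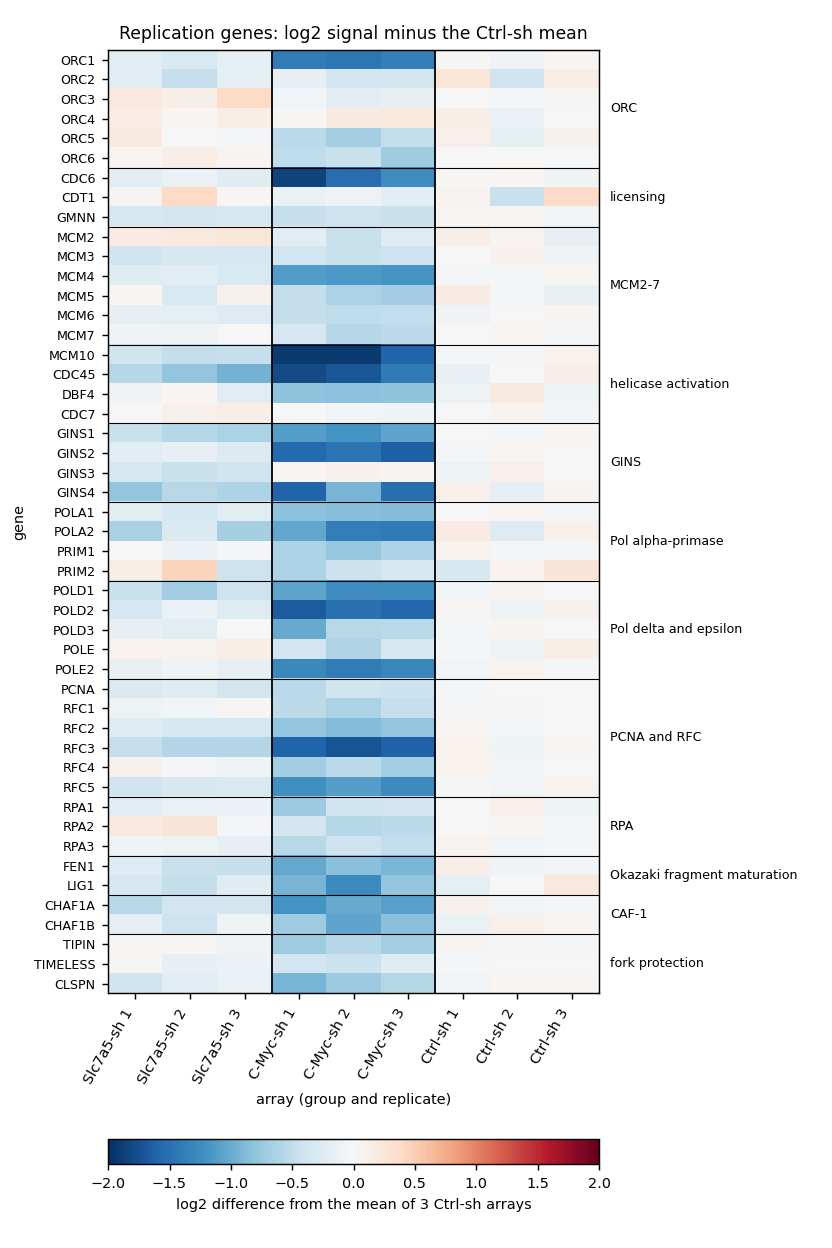
Log2 signal of each of the 48 genes (rows, by complex) on each of the 9 arrays (columns), minus the gene's mean over the 3 Ctrl-sh arrays; blue is lower and red is higher. The C-Myc-sh columns are blue in most rows, the Slc7a5-sh columns are paler, and the rows of ORC4, CDC7 and GINS3 stay near 0 or above it in C-Myc-sh cells.

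The promoters of these genes were read for 3 short motifs. RefSeq windows of GRCh38.p14 covered 42 of the 48 genes with 53 start sites. RPA2, GINS4, MCM4, MCM5, RPA3 and POLD3 are the genes without a window. The motifs, searched on both strands in the 250 bases before the start site, were an E2F-type site (TTTCCCGC, TTTCGCGC, TTTGCCGC or TTTGGCGC), the E-box bound by MYC and related factors (CACGTG) and the CCAAT box. Each motif was counted on its own, and matches of the E2F-type words can overlap each other, as they do in MCM6. An E2F-type site stood in 28.3% of the windows of these genes and in 2.79% of all 35116 windows in the table (4.19% of those of tested genes). An E-box stood in 13.2%, against 6.34% and 8.26%, and a CCAAT box in 54.7%, against 32.0% and 33.7%.

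The windows below were chosen after the values were seen, to set genes called lower in C-Myc-sh cells beside a gene that did not pass the test in either knockdown. They run from 250 bases before the start site to the base before it, on the gene's strand, and capitals mark E2F-type and E-box matches. RFC3 and GINS2 are among the lowest genes of C-Myc-sh cells, MCM6 and MCM7 belong to the helicase, FEN1 holds an E-box alone, and CDC7 holds E2F-type words but did not pass the test.
RFC3 (chr13:33817899-33818148, plus strand): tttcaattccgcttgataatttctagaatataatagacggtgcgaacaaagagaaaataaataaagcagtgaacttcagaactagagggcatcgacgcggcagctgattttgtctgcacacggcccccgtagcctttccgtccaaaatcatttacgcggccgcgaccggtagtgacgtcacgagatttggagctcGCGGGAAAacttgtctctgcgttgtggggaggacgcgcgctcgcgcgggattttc
GINS2 (chr16:85688955-85689204, minus strand): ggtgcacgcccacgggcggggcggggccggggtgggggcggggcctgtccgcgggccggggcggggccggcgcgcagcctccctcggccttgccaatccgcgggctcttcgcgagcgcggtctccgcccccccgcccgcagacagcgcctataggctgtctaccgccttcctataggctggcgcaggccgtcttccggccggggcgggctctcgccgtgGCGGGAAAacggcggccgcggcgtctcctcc
MCM6 (chr2:135876444-135876693, minus strand): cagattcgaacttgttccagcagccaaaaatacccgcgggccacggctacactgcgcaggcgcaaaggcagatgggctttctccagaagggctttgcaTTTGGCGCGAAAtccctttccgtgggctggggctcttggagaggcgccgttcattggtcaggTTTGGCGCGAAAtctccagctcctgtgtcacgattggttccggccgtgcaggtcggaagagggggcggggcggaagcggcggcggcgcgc
MCM7 (chr7:100101398-100101647, minus strand): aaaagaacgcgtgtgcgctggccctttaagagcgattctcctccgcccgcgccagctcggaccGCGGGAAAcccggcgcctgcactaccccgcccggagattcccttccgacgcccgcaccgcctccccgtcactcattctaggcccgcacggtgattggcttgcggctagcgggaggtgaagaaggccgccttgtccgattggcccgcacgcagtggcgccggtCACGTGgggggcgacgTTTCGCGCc
FEN1 (chr11:61792661-61792910, plus strand): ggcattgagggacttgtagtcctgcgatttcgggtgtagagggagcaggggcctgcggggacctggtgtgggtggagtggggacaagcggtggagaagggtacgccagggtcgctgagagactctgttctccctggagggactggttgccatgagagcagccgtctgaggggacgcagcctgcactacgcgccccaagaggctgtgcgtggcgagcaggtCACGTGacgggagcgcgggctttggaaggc
CDC7 (chr1:91500862-91501111, plus strand): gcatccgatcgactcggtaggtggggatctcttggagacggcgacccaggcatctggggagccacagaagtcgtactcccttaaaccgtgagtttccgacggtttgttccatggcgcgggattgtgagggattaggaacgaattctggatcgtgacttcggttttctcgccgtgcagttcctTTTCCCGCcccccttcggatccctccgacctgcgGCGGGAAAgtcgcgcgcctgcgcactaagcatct

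MCM7 and CDC7 have more than 1 start site in the table, and the window shown is the one with motifs: the other 2 of MCM7 and the other 1 of CDC7 hold 0 E2F-type words and 0 E-boxes. The E2F-type word lies 55 bases before the start in RFC3 and 31 bases before it in GINS2, and the E-box lies 30 bases before it in FEN1 and 25 in MCM7. The 15 genes with an E2F-type word had a median log2 change of -0.22 in Slc7a5-sh cells and -0.48 in C-Myc-sh cells. The 27 genes without one had -0.23 in Slc7a5-sh cells and -0.81 in C-Myc-sh cells. The 7 genes with an E-box (CHAF1A, FEN1, MCM2, MCM7, ORC4, RPA1 and TIMELESS) had -0.08 in Slc7a5-sh cells and -0.48 in C-Myc-sh cells, and the 35 without one -0.24 in Slc7a5-sh cells and -0.74 in C-Myc-sh cells. Genes with either motif, as spelled here, were not lower at the median than those without it. The split depends on the words searched. A close variant of the E2F-type words, TTTGGCGG, was not among them. The windows of CDC6, CDC45 and RFC1 hold it on either strand and count as without, with changes of -1.54, -1.64 and -0.54 in C-Myc-sh cells. Whether E2F factors had a part in the changes was not tested. A match describes the letters of this window only.

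The origin recognition complex, which marks origins, had 0 of its 6 genes called lower and 1 called higher in Slc7a5-sh cells. In C-Myc-sh cells 3 were called lower and 0 higher, and the median was 0.06 in Slc7a5-sh cells and -0.43 in C-Myc-sh cells. At an unadjusted p under 0.05 the counts that are 0 here stayed 0. ORC1, the large subunit that also binds nucleosomes, had 9.52, 9.42 and 9.54 in Slc7a5-sh cells, 8.33, 8.29 and 8.36 in C-Myc-sh cells and 9.75, 9.66 and 9.77 in Ctrl-sh cells. Its arrays fell into 3 separate ranges, with a log2 change of -1.40 ± 0.11 (SE, adjusted p = 6.19e-08) in C-Myc-sh cells and -0.23 ± 0.11 (SE, adjusted p = 0.144) in Slc7a5-sh cells. ORC3, a core subunit, had 11.36, 11.26 and 11.54 in Slc7a5-sh cells, 11.09, 10.92 and 10.98 in C-Myc-sh cells and 11.15, 11.13 and 11.17 in Ctrl-sh cells. It was the only gene of the 48 called higher in Slc7a5-sh cells, at 0.24 ± 0.078 (SE, adjusted p = 0.0347), and leaving out any of the 3 Ctrl-sh arrays or Slc7a5-sh replicate 1 or 3 ended that call (adjusted p up to 0.137). ORC4, another core subunit, had 11.32, 11.21 and 11.31 in Slc7a5-sh cells, 11.19, 11.36 and 11.38 in C-Myc-sh cells and 11.30, 11.05 and 11.18 in Ctrl-sh cells, with overlapping groups and the highest change of the 48 in C-Myc-sh cells, 0.14 ± 0.079 (SE, adjusted p = 0.16).

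ORC2, a core subunit, had 10.19, 9.95 and 10.21 in Slc7a5-sh cells, 10.25, 10.03 and 10.02 in C-Myc-sh cells and 10.65, 10.01 and 10.56 in Ctrl-sh cells, with log2 changes of -0.29 ± 0.14 (SE, adjusted p = 0.164) in Slc7a5-sh cells and -0.31 ± 0.14 (SE, adjusted p = 0.0847) in C-Myc-sh cells. Ctrl-sh replicate 2 lay below the other Ctrl-sh arrays, and without it ORC2 passed the test at log2 -0.49 in Slc7a5-sh cells (adjusted p = 0.00861) and -0.51 in C-Myc-sh cells (adjusted p = 0.00203). On a second probe set, 235423_at, Ctrl-sh replicate 2 was instead the highest of the Ctrl-sh arrays (9.26, 9.63 and 9.29). In a fit over all probe sets this set had -0.071 in Slc7a5-sh cells (adjusted p = 0.82) and 0.20 in C-Myc-sh cells (adjusted p = 0.368). ORC5 and ORC6 passed the test in C-Myc-sh cells, at -0.56 and -0.55, and had 0.044 and 0.076 in Slc7a5-sh cells.

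Of the 3 licensing genes 1 was called lower in Slc7a5-sh cells, GMNN, and 2 in C-Myc-sh cells, CDC6 and GMNN, with a median of -0.20 in Slc7a5-sh cells and -0.44 in C-Myc-sh cells. CDC6, the ATPase that recruits the helicase, had 11.43, 11.51 and 11.40 in Slc7a5-sh cells, 9.79, 10.11 and 10.39 in C-Myc-sh cells and 11.67, 11.68 and 11.58 in Ctrl-sh cells. It fell by 1.54 on the log2 scale in C-Myc-sh cells (SE 0.11, adjusted p = 2.38e-08), to 34.3% of the Ctrl-sh signal, and had -0.20 ± 0.11 (SE, adjusted p = 0.227) in Slc7a5-sh cells. GMNN, the inhibitor of loading, had 12.84, 12.83 and 12.87 in Slc7a5-sh cells, 12.74, 12.79 and 12.76 in C-Myc-sh cells and 13.22, 13.23 and 13.14 in Ctrl-sh cells. It fell in both knockdowns, with changes of -0.35 ± 0.050 (SE, adjusted p = 0.000159) in Slc7a5-sh cells and -0.44 ± 0.050 (SE, adjusted p = 2.7e-06) in C-Myc-sh cells. CDT1, the partner of CDC6 that GMNN binds, had 10.06, 10.41 and 10.04 in Slc7a5-sh cells, 9.88, 9.91 and 9.79 in C-Myc-sh cells and 10.07, 9.56 and 10.39 in Ctrl-sh cells on its brightest probe set, with 0.16 ± 0.17 (SE, adjusted p = 0.513) in Slc7a5-sh cells and -0.15 ± 0.17 (SE, adjusted p = 0.479) in C-Myc-sh cells. The Ctrl-sh arrays of CDT1 spread more widely than either knockdown's, and without Ctrl-sh replicate 2 CDT1 passed the test in C-Myc-sh cells (log2 -0.37, adjusted p = 0.0338).

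A second probe set of CDT1, 209832_s_at, gave a different answer for C-Myc-sh cells. Its log2 signals were 9.57, 9.10 and 9.56 in Slc7a5-sh cells, 7.96, 8.15 and 8.32 in C-Myc-sh cells and 9.22, 9.68 and 9.75 in Ctrl-sh cells. In a fit over all probe sets, added after the data were seen, the change was -1.41 ± 0.17 in C-Myc-sh cells (SE, adjusted p = 8.85e-06), against -0.15 for the kept probe set 228868_x_at. For CDC6 a second probe set, 203967_at, was called lower in Slc7a5-sh cells too, at -0.47 (adjusted p = 0.000228), where the kept set 203968_s_at had -0.20.

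The helicase subunits MCM2 to MCM7 all fell in C-Myc-sh cells, and 3 of the 6 fell in Slc7a5-sh cells. The medians were -0.13 in Slc7a5-sh cells and -0.48 in C-Myc-sh cells. MCM4 had 12.51, 12.56 and 12.46 in Slc7a5-sh cells, 11.65, 11.62 and 11.58 in C-Myc-sh cells and 12.74, 12.74 and 12.80 in Ctrl-sh cells, the lowest of the 6 in C-Myc-sh cells at -1.15 ± 0.054 (SE, adjusted p = 2.56e-10), and -0.25 ± 0.054 (SE, adjusted p = 0.00326) in Slc7a5-sh cells. Its 3 further probe sets that were tested had changes of -1.60, -1.63 and -1.49 in C-Myc-sh cells. MCM3 had 12.70, 12.78 and 12.75 in Slc7a5-sh cells, 12.73, 12.67 and 12.69 in C-Myc-sh cells and 13.10, 13.19 and 13.04 in Ctrl-sh cells, a change of -0.36 ± 0.054 (SE, adjusted p = 0.00024) in Slc7a5-sh cells and -0.41 ± 0.054 (SE, adjusted p = 1.12e-05) in C-Myc-sh cells. Its arrays of the 2 knockdowns overlapped, unlike those of MCM4. MCM2 had 12.32, 12.32 and 12.39 in Slc7a5-sh cells, 11.92, 11.70 and 11.88 in C-Myc-sh cells and 12.27, 12.20 and 11.98 in Ctrl-sh cells, the smallest of the 6 changes in C-Myc-sh cells at -0.31 ± 0.079 (SE, adjusted p = 0.00335). In Slc7a5-sh cells MCM2 lay above every Ctrl-sh array without passing the test, at 0.19 ± 0.079 (SE, adjusted p = 0.0877).

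MCM6 was called lower in both knockdowns, at -0.20 in Slc7a5-sh cells and -0.49 in C-Myc-sh cells, and its call in Slc7a5-sh cells was lost without Ctrl-sh replicate 3 (adjusted p = 0.0571) and with quantile normalization (0.0511). A second, dimmer probe set of MCM6, 238977_at, was called in neither in the fit over all probe sets. It had -0.35 (adjusted p = 0.26) in Slc7a5-sh cells and -0.13 (adjusted p = 0.63) in C-Myc-sh cells. MCM5 and MCM7 were called lower in C-Myc-sh cells, at -0.60 and -0.48, and in Slc7a5-sh cells MCM5 had -0.065 and MCM7 had -0.057. The 6 subunits form 1 ring in the cell, and on the log2 scale their changes in C-Myc-sh cells ran from -1.15 to -0.31.

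**Figure D2:**
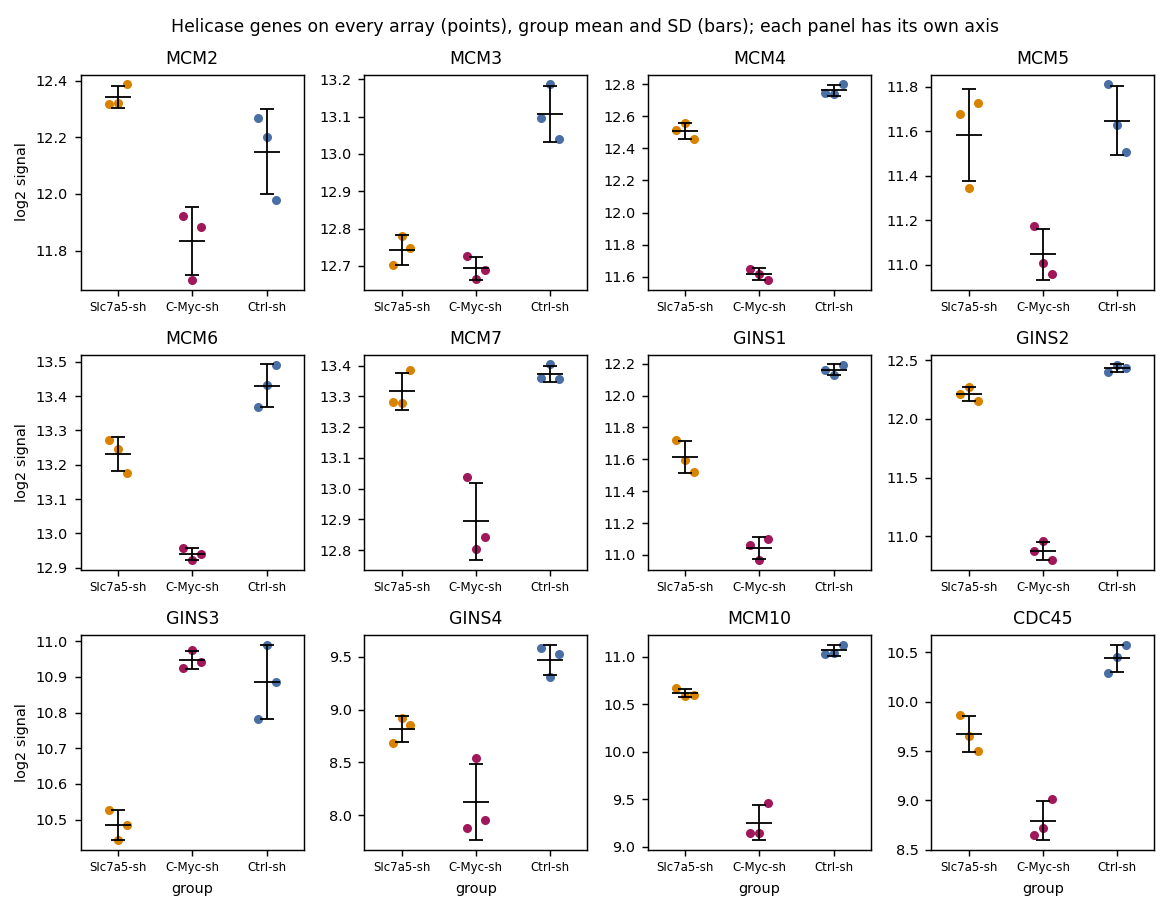
Log2 signal (vertical axis) on each array for the 6 MCM2-7 subunits, the 4 GINS subunits, MCM10 and CDC45, with Slc7a5-sh left, C-Myc-sh in the middle and Ctrl-sh right; bars are the mean and SD of 3 arrays. MCM10 and CDC45 drop furthest in C-Myc-sh cells, and GINS3 is called lower in Slc7a5-sh cells and not called in C-Myc-sh cells.

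The factors that activate the loaded helicase held the lowest change of the 48 genes in each knockdown. Of the 4 genes 2 were called lower in Slc7a5-sh cells, with a median of -0.27, and 3 in C-Myc-sh cells, with a median of -1.23. MCM10 had 10.67, 10.59 and 10.60 in Slc7a5-sh cells, 9.15, 9.15 and 9.47 in C-Myc-sh cells and 11.03, 11.04 and 11.13 in Ctrl-sh cells. Its change of -1.81 ± 0.095 (SE, adjusted p = 7.93e-10) in C-Myc-sh cells left 28.5% of the Ctrl-sh signal and its other probe sets gave -2.06 and -1.94. In Slc7a5-sh cells MCM10 changed by -0.45 ± 0.095 (SE, adjusted p = 0.00321). CDC45, which joins MCM2-7 and GINS in the active helicase, had 9.87, 9.66 and 9.50 in Slc7a5-sh cells, 8.65, 8.72 and 9.02 in C-Myc-sh cells and 10.29, 10.46 and 10.57 in Ctrl-sh cells. Its change of -0.77 ± 0.13 (SE, adjusted p = 0.00069) was the lowest of the 48 in Slc7a5-sh cells, where 58.8% of the Ctrl-sh signal remained, and in C-Myc-sh cells it was -1.64 ± 0.13 (SE, adjusted p = 5.97e-08).

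Of the kinase that fires origins, 1 of 2 subunits was called lower in C-Myc-sh cells and neither in Slc7a5-sh cells. DBF4, the regulatory subunit, fell by 0.81 on the log2 scale in C-Myc-sh cells (adjusted p = 5.07e-07) and had -0.083 in Slc7a5-sh cells. CDC7, the catalytic subunit, had 11.24, 11.34 and 11.38 in Slc7a5-sh cells, 11.25, 11.20 and 11.17 in C-Myc-sh cells and 11.24, 11.30 and 11.19 in Ctrl-sh cells. The 3 groups of CDC7 overlapped, with 0.076 ± 0.066 (SE, adjusted p = 0.442) in Slc7a5-sh cells and -0.041 ± 0.066 (SE, adjusted p = 0.634) in C-Myc-sh cells, and the 95% interval of the change in C-Myc-sh cells was -0.18 to 0.10.

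All 4 GINS genes fell in Slc7a5-sh cells, the one complex of more than 2 genes here in which every member was called there, and 3 of the 4 fell in C-Myc-sh cells. The medians were -0.47 in Slc7a5-sh cells and -1.23 in C-Myc-sh cells. GINS2 had 12.22, 12.27 and 12.15 in Slc7a5-sh cells, 10.87, 10.96 and 10.80 in C-Myc-sh cells and 12.40, 12.46 and 12.43 in Ctrl-sh cells, a change of -1.55 ± 0.061 (SE, adjusted p = 4.75e-11) in C-Myc-sh cells and -0.22 ± 0.061 (SE, adjusted p = 0.0173) in Slc7a5-sh cells. GINS4 had 8.68, 8.92 and 8.85 in Slc7a5-sh cells, 7.88, 8.54 and 7.96 in C-Myc-sh cells and 9.58, 9.31 and 9.53 in Ctrl-sh cells, a change of -0.66 ± 0.18 (SE, adjusted p = 0.0135) in Slc7a5-sh cells and -1.35 ± 0.18 (SE, adjusted p = 1.14e-05) in C-Myc-sh cells. Its arrays within a group spread more than those of GINS2. The calls in Slc7a5-sh cells were lost for GINS2 without Ctrl-sh replicate 2 or 3 or Slc7a5-sh replicate 3 (adjusted p up to 0.0652), and for GINS4 without Ctrl-sh replicate 1 or Slc7a5-sh replicate 1 (up to 0.0545). With averaged probe sets both calls were lost too (adjusted p = 0.276 for GINS2 and 0.0926 for GINS4), and GINS2 lost its call in Slc7a5-sh cells (0.529) and in C-Myc-sh cells (log2 -0.55, adjusted p = 0.0681) without probe sets ending in _s_at or _x_at. The set that then stood for GINS2, 243136_at, was dimmer, with a mean log2 signal of 7.33 against 11.84 for the kept set. Its SE was larger, 0.24 against 0.063 in the fit over all probe sets. GINS1 was called lower in both, at -0.55 in Slc7a5-sh cells and -1.12 in C-Myc-sh cells.

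GINS3 is the GINS gene that did not pass the test in C-Myc-sh cells. It had 10.53, 10.44 and 10.49 in Slc7a5-sh cells, 10.93, 10.97 and 10.94 in C-Myc-sh cells and 10.78, 10.99 and 10.88 in Ctrl-sh cells. All Slc7a5-sh arrays lay below all Ctrl-sh arrays, with -0.40 ± 0.074 (SE, adjusted p = 0.00124), whereas the C-Myc-sh arrays lay among the Ctrl-sh arrays, with 0.061 ± 0.074 (SE, adjusted p = 0.513) and a 95% interval of -0.098 to 0.22. The direct difference was 0.46 ± 0.074 (SE, adjusted p = 0.000105), and GINS3 was the one gene of the 48 called higher in C-Myc-sh than in Slc7a5-sh cells. A second probe set of GINS3, 218719_s_at, had -0.29 (adjusted p = 0.0862) in Slc7a5-sh cells and -0.0041 in C-Myc-sh cells, and its direct difference of 0.28 missed the threshold (adjusted p = 0.0547).

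Polymerase alpha with primase, which lays down the first stretch of each new strand, fell in 2 of 4 genes in Slc7a5-sh cells, with a median of -0.16, and in 3 of 4 in C-Myc-sh cells, with a median of -0.76. POLA2, its accessory subunit, had 10.53, 10.89 and 10.52 in Slc7a5-sh cells, 10.14, 9.80 and 9.77 in C-Myc-sh cells and 11.34, 10.93 and 11.28 in Ctrl-sh cells. Its changes were -0.54 ± 0.13 (SE, adjusted p = 0.00805) in Slc7a5-sh cells and -1.28 ± 0.13 (SE, adjusted p = 1e-06) in C-Myc-sh cells, the lowest of the 4 in both knockdowns. POLA1, the catalytic subunit, was called lower in both, at -0.27 in Slc7a5-sh cells and -0.84 in C-Myc-sh cells, and PRIM1, the catalytic primase subunit, in C-Myc-sh cells at -0.67, with -0.050 in Slc7a5-sh cells. PRIM2, the large primase subunit, had 9.54, 9.85 and 8.99 in Slc7a5-sh cells, 8.79, 8.98 and 9.08 in C-Myc-sh cells and 9.09, 9.47 and 9.66 in Ctrl-sh cells, with 0.052 ± 0.20 (SE, adjusted p = 0.878) in Slc7a5-sh cells and -0.46 ± 0.20 (SE, adjusted p = 0.0629) in C-Myc-sh cells. Its Ctrl-sh replicate 1 lay below the other Ctrl-sh arrays, and without it the change in C-Myc-sh cells passed the test (-0.62, adjusted p = 0.0227). A related gene, PRIM2BP, shares 4 further probe sets with PRIM2, which were not used here.

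The polymerases that extend the strands, delta and epsilon, fell in 2 of 5 measured subunits in Slc7a5-sh cells, with a median of -0.13, and in all 5 in C-Myc-sh cells, with a median of -1.18. POLD2, the second subunit of delta, had 12.07, 12.28 and 12.15 in Slc7a5-sh cells, 10.75, 10.92 and 10.84 in C-Myc-sh cells and 12.42, 12.31 and 12.50 in Ctrl-sh cells. It stood at 33.7% of the Ctrl-sh signal in C-Myc-sh cells, a change of -1.57 ± 0.073 (SE, adjusted p = 2.38e-10), and had -0.24 ± 0.073 (SE, adjusted p = 0.0262) in Slc7a5-sh cells, a call lost without Ctrl-sh replicate 1 or 3 or Slc7a5-sh replicate 1 or 3 (adjusted p up to 0.114). POLD1, the catalytic subunit of delta, had 9.92, 9.66 and 9.94 in Slc7a5-sh cells, 9.31, 9.11 and 9.12 in C-Myc-sh cells and 10.30, 10.41 and 10.36 in Ctrl-sh cells, with -0.52 ± 0.11 (SE, adjusted p = 0.00248) in Slc7a5-sh cells and -1.18 ± 0.11 (SE, adjusted p = 2.2e-07) in C-Myc-sh cells. POLE, the catalytic subunit of epsilon, had 9.73, 9.73 and 9.80 in Slc7a5-sh cells, 9.28, 9.06 and 9.34 in C-Myc-sh cells and 9.65, 9.56 and 9.79 in Ctrl-sh cells, with 0.086 ± 0.11 (SE, adjusted p = 0.619) in Slc7a5-sh cells and -0.44 ± 0.11 (SE, adjusted p = 0.00353) in C-Myc-sh cells. Its change in C-Myc-sh cells was the smallest of the 5, and its subunit POLE2 had -1.33 there and -0.13 in Slc7a5-sh cells. POLD3 had -0.13 in Slc7a5-sh cells and -0.70 in C-Myc-sh cells.

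The PCNA clamp and its loader RFC fell in 4 of 6 genes in Slc7a5-sh cells, with a median of -0.30, and in all 6 in C-Myc-sh cells, with a median of -0.73. RFC3 had 12.37, 12.24 and 12.24 in Slc7a5-sh cells, 11.22, 11.09 and 11.20 in C-Myc-sh cells and 12.89, 12.73 and 12.85 in Ctrl-sh cells. It was the lowest of the 6 in both, at -0.55 ± 0.065 (SE, adjusted p = 4.34e-05) in Slc7a5-sh cells and -1.65 ± 0.065 (SE, adjusted p = 4.24e-11) in C-Myc-sh cells, and its 3 groups lay apart. PCNA, the clamp, had 13.77, 13.82 and 13.70 in Slc7a5-sh cells, 13.53, 13.67 and 13.62 in C-Myc-sh cells and 14.04, 14.07 and 14.07 in Ctrl-sh cells, with -0.30 ± 0.052 (SE, adjusted p = 0.000854) in Slc7a5-sh cells and -0.45 ± 0.052 (SE, adjusted p = 3.08e-06) in C-Myc-sh cells, the smallest of the 6 changes in C-Myc-sh cells. RFC4 had 13.32, 13.20 and 13.14 in Slc7a5-sh cells, 12.53, 12.68 and 12.55 in C-Myc-sh cells and 13.30, 13.17 and 13.21 in Ctrl-sh cells. In Slc7a5-sh cells RFC4 overlapped with Ctrl-sh, at -0.0069 ± 0.063 (SE, adjusted p = 0.951), and in C-Myc-sh cells it was -0.64 ± 0.063 (SE, adjusted p = 5.74e-07). RFC2 and RFC5 were called lower in both, RFC2 at -0.31 in Slc7a5-sh cells and -0.82 in C-Myc-sh cells, and RFC5 at -0.34 in Slc7a5-sh cells and -1.20 in C-Myc-sh cells. RFC1, the large subunit, was called lower in C-Myc-sh cells, at -0.54, and had -0.042 in Slc7a5-sh cells. A second probe set of RFC1, 209085_x_at, was called lower in both in the fit over all probe sets. It had -0.30 in Slc7a5-sh cells (adjusted p = 0.0156) and -0.55 in C-Myc-sh cells (adjusted p = 4.25e-05).

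RPA fell in all 3 subunits in C-Myc-sh cells, and 0 of 3 passed the test in Slc7a5-sh cells, also at an unadjusted p under 0.05. The median was -0.11 in Slc7a5-sh cells and -0.49 in C-Myc-sh cells. RPA1, the large DNA-binding subunit, had 12.09, 12.19 and 12.20 in Slc7a5-sh cells, 11.59, 11.93 and 11.93 in C-Myc-sh cells and 12.30, 12.41 and 12.23 in Ctrl-sh cells, with -0.16 ± 0.085 (SE, adjusted p = 0.202) in Slc7a5-sh cells and -0.50 ± 0.085 (SE, adjusted p = 0.000136) in C-Myc-sh cells. RPA2 had 12.02, 12.09 and 11.81 in Slc7a5-sh cells, 11.45, 11.26 and 11.31 in C-Myc-sh cells and 11.82, 11.87 and 11.80 in Ctrl-sh cells, with 0.14 ± 0.077 (SE, adjusted p = 0.191) in Slc7a5-sh cells and -0.49 ± 0.077 (SE, adjusted p = 7.01e-05) in C-Myc-sh cells, and without Slc7a5-sh replicate 3 it was called higher in Slc7a5-sh cells (0.23, adjusted p = 0.0355). RPA3 had 13.19, 13.17 and 13.11 in Slc7a5-sh cells, 12.72, 12.85 and 12.77 in C-Myc-sh cells and 13.34, 13.21 and 13.25 in Ctrl-sh cells, with -0.11 ± 0.055 (SE, adjusted p = 0.147) in Slc7a5-sh cells and -0.49 ± 0.055 (SE, adjusted p = 2.49e-06) in C-Myc-sh cells. In C-Myc-sh cells the changes of the 3 subunits thus ran from -0.50 to -0.49 on the log2 scale, with every array below every Ctrl-sh array.

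FEN1, the flap nuclease, and LIG1, the ligase that seals Okazaki fragments, fell in C-Myc-sh cells. FEN1 had 12.96, 12.78 and 12.77 in Slc7a5-sh cells, 12.20, 12.39 and 12.31 in C-Myc-sh cells and 13.36, 13.16 and 13.17 in Ctrl-sh cells, with -0.39 ± 0.073 (SE, adjusted p = 0.00142) in Slc7a5-sh cells and -0.93 ± 0.073 (SE, adjusted p = 5.95e-08) in C-Myc-sh cells. LIG1 had 9.96, 9.82 and 10.05 in Slc7a5-sh cells, 9.36, 9.03 and 9.53 in C-Myc-sh cells and 10.10, 10.28 and 10.50 in Ctrl-sh cells, with -0.35 ± 0.13 (SE, adjusted p = 0.0722) in Slc7a5-sh cells and -0.99 ± 0.13 (SE, adjusted p = 1.74e-05) in C-Myc-sh cells. Every Slc7a5-sh array of LIG1 lay below every Ctrl-sh array, and without Ctrl-sh replicate 1 it passed the test (-0.45, adjusted p = 0.0454), as it did without C-Myc-sh replicate 2 (adjusted p = 0.0403).

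Of the CAF-1 subunits, which deposit histones H3 and H4 behind the fork, both fell in C-Myc-sh cells and CHAF1A in Slc7a5-sh cells. CHAF1A had 10.17, 10.33 and 10.36 in Slc7a5-sh cells, 9.52, 9.72 and 9.63 in C-Myc-sh cells and 10.81, 10.67 and 10.68 in Ctrl-sh cells, with -0.43 ± 0.091 (SE, adjusted p = 0.00286) in Slc7a5-sh cells and -1.10 ± 0.091 (SE, adjusted p = 9.23e-08) in C-Myc-sh cells. CHAF1B had 9.25, 9.04 and 9.36 in Slc7a5-sh cells, 8.74, 8.40 and 8.62 in C-Myc-sh cells and 9.32, 9.55 and 9.49 in Ctrl-sh cells, with -0.24 ± 0.14 (SE, adjusted p = 0.236) in Slc7a5-sh cells and -0.87 ± 0.14 (SE, adjusted p = 7.62e-05) in C-Myc-sh cells. Both calls of CHAF1A were lost on the one probe set without an _s_at or _x_at ending (log2 -0.015 in C-Myc-sh cells), a dim set with a mean log2 signal of 6.58. The further sets 203975_s_at and 203976_s_at had -1.04 (adjusted p = 0.000249) and -1.01 (adjusted p = 2.31e-06) in C-Myc-sh cells. In Slc7a5-sh cells they had -0.27 (adjusted p = 0.335) and -0.42 (adjusted p = 0.0136). The Slc7a5-sh and Ctrl-sh arrays of CHAF1B overlapped and those of CHAF1A did not.

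The fork protection genes fell in C-Myc-sh cells in 3 of 3, and 0 of 3 passed the test in Slc7a5-sh cells, also at an unadjusted p under 0.05. CLSPN, the adaptor through which ATR activates CHEK1, had 9.11, 9.29 and 9.36 in Slc7a5-sh cells, 8.57, 8.78 and 8.94 in C-Myc-sh cells and 9.45, 9.53 and 9.52 in Ctrl-sh cells, with -0.25 ± 0.13 (SE, adjusted p = 0.179) in Slc7a5-sh cells and -0.74 ± 0.13 (SE, adjusted p = 0.000181) in C-Myc-sh cells. TIPIN had 11.78, 11.79 and 11.70 in Slc7a5-sh cells, 11.06, 11.20 and 11.09 in C-Myc-sh cells and 11.82, 11.75 and 11.74 in Ctrl-sh cells, with -0.0079 ± 0.063 (SE, adjusted p = 0.945) in Slc7a5-sh cells and -0.65 ± 0.063 (SE, adjusted p = 5.02e-07) in C-Myc-sh cells. TIMELESS, its partner, had 11.27, 11.09 and 11.13 in Slc7a5-sh cells, 10.86, 10.81 and 10.99 in C-Myc-sh cells and 11.23, 11.26 and 11.25 in Ctrl-sh cells, with -0.081 ± 0.073 (SE, adjusted p = 0.466) in Slc7a5-sh cells and -0.36 ± 0.073 (SE, adjusted p = 0.000716) in C-Myc-sh cells. The 2 partners overlapped with Ctrl-sh in Slc7a5-sh cells and lay below it on every C-Myc-sh array.

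**Figure D3:**
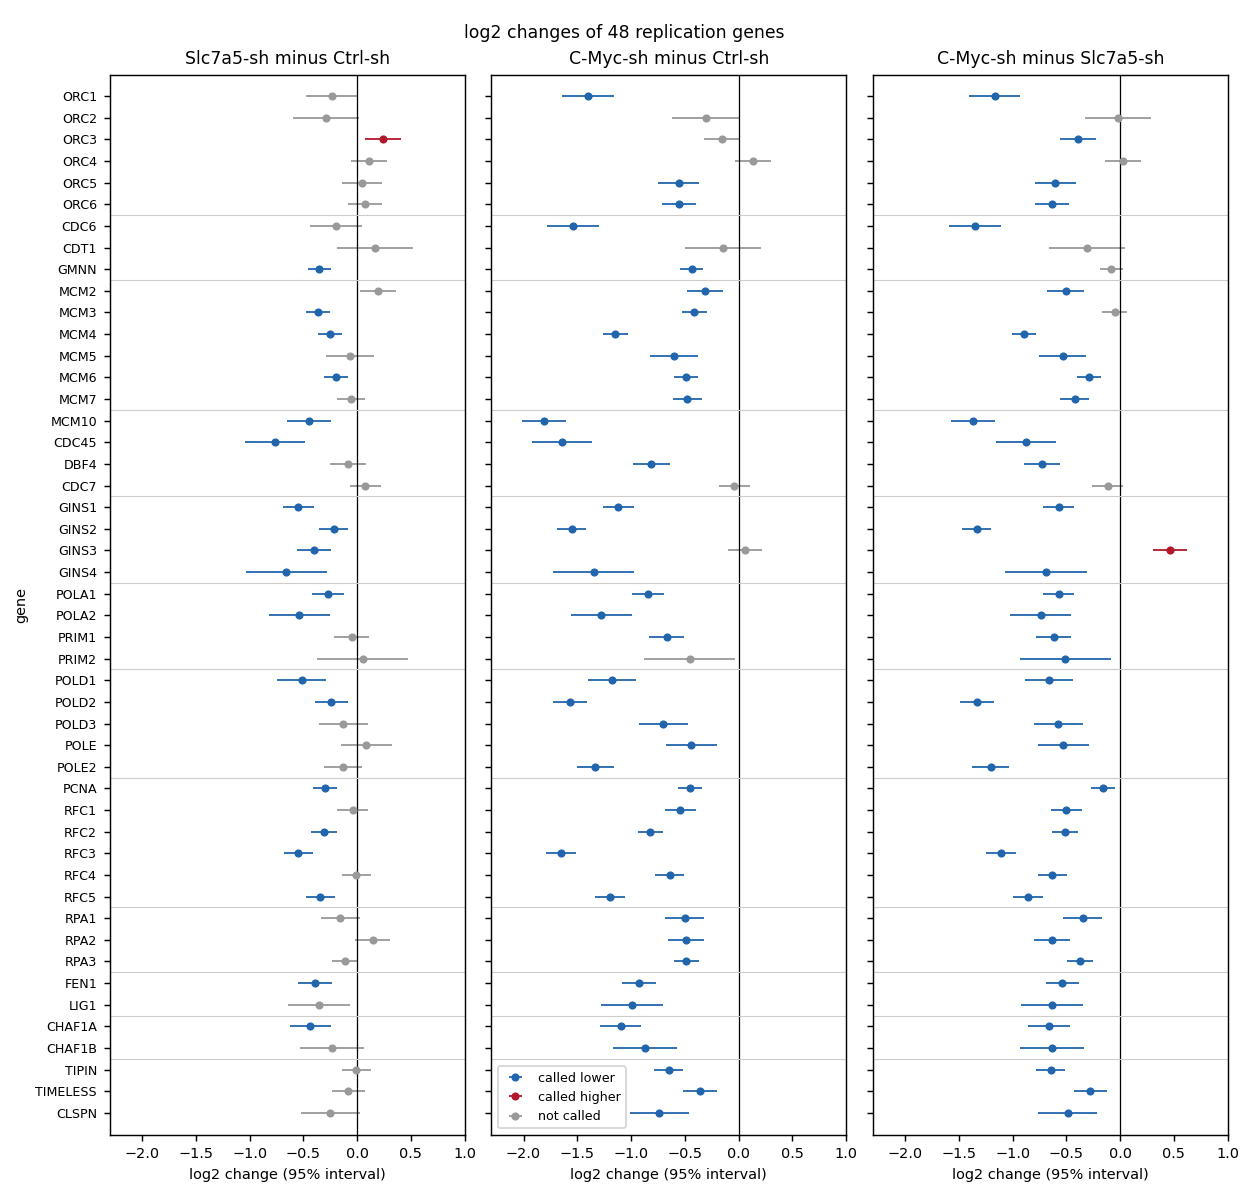
Log2 change with its 95% interval for each of the 48 genes, by complex, in Slc7a5-sh against Ctrl-sh, C-Myc-sh against Ctrl-sh and C-Myc-sh against Slc7a5-sh cells; blue is called lower, red called higher and grey not called. The blue points are 20, 41 and 41 in the 3 panels and the red points 1, 0 and 1.

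Set directly against each other, C-Myc-sh cells had less of most of these transcripts than Slc7a5-sh cells. Of the 48 genes 41 were called lower and 1 higher in C-Myc-sh than in Slc7a5-sh cells, where 25.1% of all tested genes were lower and 24.4% higher, and the median log2 difference was -0.57 (0.03 over all tested genes). All 3 C-Myc-sh arrays lay below all 3 Slc7a5-sh arrays in 42 genes and above them in 1, and over all tested genes in 27.7% and 28.8%. The lowest were MCM10, CDC6 and GINS2. MCM10 had 9.15, 9.15 and 9.47 in C-Myc-sh cells and 10.67, 10.59 and 10.60 in Slc7a5-sh cells, a difference of -1.37 ± 0.095 (SE, adjusted p = 2.39e-08). The difference was -1.35 ± 0.11 (SE, adjusted p = 1.49e-07) for CDC6 and -1.34 ± 0.061 (SE, adjusted p = 3.69e-10) for GINS2. Not called were ORC2, ORC4, CDT1, GMNN, MCM3 and CDC7. For GMNN and MCM3, both lower in each knockdown than in Ctrl-sh cells, the 95% interval of the direct difference was -0.19 to 0.022 and -0.17 to 0.066. The calls of PRIM2 (-0.51, adjusted p = 0.0439) and PCNA (-0.16, adjusted p = 0.0223) were lost without single arrays, PRIM2 without Ctrl-sh replicate 2, Slc7a5-sh replicate 1 or 2 or C-Myc-sh replicate 1 or 2 (adjusted p up to 0.214) and PCNA without Slc7a5-sh replicate 1 or 2 or C-Myc-sh replicate 1 (up to 0.0893). With quantile normalization the difference of PCNA was 0.049 and not called. With all probe sets of a gene averaged, 32 of the 48 genes were called lower, where 19.9% of all genes were. ORC5, MCM6, GINS2, GINS4, POLA2, PRIM2, RFC1, RPA1, TIMELESS and CLSPN then lost their calls (adjusted p of 0.0751 to 0.993), and CDT1 was called lower (-0.79, adjusted p = 0.000291). Without probe sets ending in _s_at or _x_at, GINS2, CHAF1A and TIMELESS were not called.

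Further probe sets existed for 24 of the 48 genes, and 36 of them were bright enough to be tested. In Slc7a5-sh cells 11 of these were called lower and 0 higher (also 0 higher at an unadjusted p under 0.05 in limma), where 9.38% and 11% of the 22166 probe sets in that fit were. In C-Myc-sh cells 21 were called lower and 1 higher, against 22.4% and 26.2%. The one that rose was 213734_at of RFC5, with 9.94, 10.17 and 9.70 in Slc7a5-sh cells, 10.76, 10.96 and 10.77 in C-Myc-sh cells and 10.53, 10.23 and 10.34 in Ctrl-sh cells. Its change was 0.47 (adjusted p = 0.00454) in C-Myc-sh cells, whereas the kept set 203209_at had -1.20 and the third set, 203210_s_at, had -1.07. RFC5 is the one gene of the 48 whose probe sets were called in opposite directions.

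The choice of probe set decided some calls of both knockdowns. Some probe sets, marked _s_at or _x_at, can bind related transcripts, and without them 37 genes had one that was tested, and 14 of these were called lower in Slc7a5-sh cells, where 10.2% of all genes in that fit were, and 28 were called lower in C-Myc-sh cells, where 23.4% were. POLA2 and CHAF1A were then 0.066 and 0.29 in Slc7a5-sh cells, neither of them called, on dimmer probe sets. MCM4 and GINS2 lost their calls there too, at -0.20 (adjusted p = 0.0549) and -0.24 (adjusted p = 0.529). The set that stood for MCM4, 212141_at, was not dim, with a mean log2 signal of 11.82. In C-Myc-sh cells CHAF1A was then -0.015, POLA2 -0.64, TIMELESS -0.69 and GINS2 -0.55, and none of the 4 was called (adjusted p of 0.0615 to 0.977). With all probe sets of a gene averaged, 14 genes were called lower in Slc7a5-sh cells, where 7.72% of all genes were, and 38 in C-Myc-sh cells, where 22.1% were. In C-Myc-sh cells ORC5, RFC1, RFC3 and RPA1 lost their calls, at -0.42, -0.40, -0.41 and -0.85 (adjusted p of 0.0643 to 0.175). In Slc7a5-sh cells MCM4, MCM6, GINS2, GINS4, POLA2, RFC3 and CHAF1A lost theirs. RFC3 was then 0.58 in Slc7a5-sh cells and not called, since a probe set too dim to be tested, 231119_at, entered its mean, with 7.07, 4.82 and 6.89 in Slc7a5-sh cells and 3.63, 4.42 and 1.66 in Ctrl-sh cells.

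**Figure D4:**
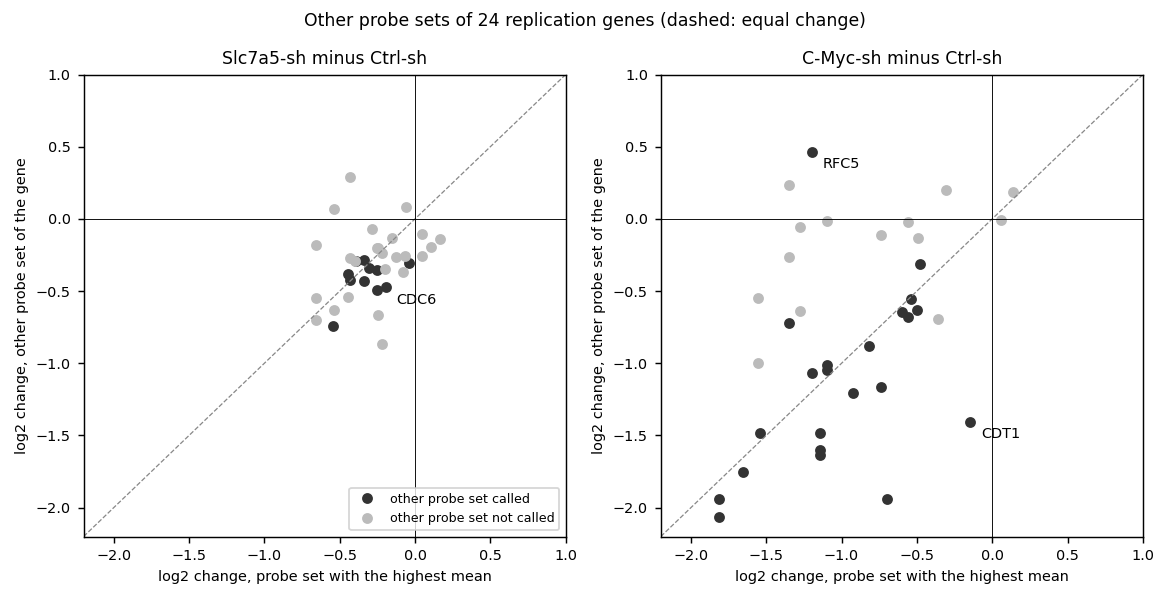
Log2 change of the further probe sets (vertical axis) against that of the kept probe set of the same gene (horizontal axis), Slc7a5-sh against Ctrl-sh on the left and C-Myc-sh against Ctrl-sh on the right; the diagonal marks equal changes. CDC6 lies below the diagonal on the left, and on the right the one called point above 0 is RFC5 and the point of CDT1 lies at -1.41.

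Genes that work around the same forks were listed separately, 46 of 48 of them tested. In Slc7a5-sh cells 14 were called lower and 4 higher, with a median of -0.12, where 11.0% of all tested genes were lower and 14.3% higher. In C-Myc-sh cells 32 were called lower and 6 higher, with a median of -0.55, where 26.2% of all tested genes were lower and 28.7% higher. UHRF1, which recruits DNMT1 to newly copied DNA, had 12.95, 12.92 and 12.98 in Slc7a5-sh cells, 11.90, 11.79 and 11.87 in C-Myc-sh cells and 13.61, 13.49 and 13.54 in Ctrl-sh cells, with -0.60 ± 0.054 (SE, adjusted p = 5.02e-06) in Slc7a5-sh cells and -1.69 ± 0.054 (SE, adjusted p = 5.71e-12) in C-Myc-sh cells. DNMT1, the maintenance DNA methyltransferase, had -0.39 ± 0.068 (SE, adjusted p = 0.000819) in Slc7a5-sh cells and -0.73 ± 0.068 (SE, adjusted p = 3.59e-07) in C-Myc-sh cells. ASF1B, a histone chaperone, had -0.56 ± 0.069 (SE, adjusted p = 5.53e-05) in Slc7a5-sh cells and -1.15 ± 0.069 (SE, adjusted p = 3.1e-09) in C-Myc-sh cells, and DSCC1, a subunit of an alternative clamp loader, -0.51 ± 0.077 (SE, adjusted p = 0.000264) in Slc7a5-sh cells and -1.77 ± 0.077 (SE, adjusted p = 1.17e-10) in C-Myc-sh cells. POLE3, a small subunit of polymerase epsilon, fell in C-Myc-sh cells, at -1.07 ± 0.059 (SE, adjusted p = 1.32e-09), and had -0.017 ± 0.059 (SE, adjusted p = 0.871) in Slc7a5-sh cells. All 5 thus fell in C-Myc-sh cells, and all but POLE3 in Slc7a5-sh cells.

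The genes of this second list that rose were few. MCM9, a relative of the helicase subunits that acts in recombination, had 9.34, 9.27 and 9.26 in Slc7a5-sh cells, 10.02, 10.01 and 10.03 in C-Myc-sh cells and 8.82, 8.70 and 8.80 in Ctrl-sh cells, with 0.52 ± 0.10 (SE, adjusted p = 0.00223) in Slc7a5-sh cells and 1.25 ± 0.10 (SE, adjusted p = 9.9e-08) in C-Myc-sh cells. PRIMPOL, which restarts stalled forks, rose in both, at 0.35 ± 0.11 (SE, adjusted p = 0.0277) in Slc7a5-sh cells and 0.68 ± 0.11 (SE, adjusted p = 8.16e-05) in C-Myc-sh cells. CHEK1, the checkpoint kinase, had 11.77, 11.78 and 11.51 in Slc7a5-sh cells, 10.70, 10.75 and 10.97 in C-Myc-sh cells and 11.34, 11.17 and 11.37 in Ctrl-sh cells: it rose in Slc7a5-sh cells, at 0.39 ± 0.093 (SE, adjusted p = 0.00638), and fell in C-Myc-sh cells, at -0.49 ± 0.093 (SE, adjusted p = 0.0004). POLE4, of polymerase epsilon, rose in Slc7a5-sh cells (0.23, adjusted p = 0.0364) and had 0.10 in C-Myc-sh cells. POLD4, the small subunit of delta, rose in C-Myc-sh cells (0.40, adjusted p = 0.00342) and fell in Slc7a5-sh cells (-0.30, adjusted p = 0.0419), whereas the 3 delta subunits among the 48 were lower in C-Myc-sh cells. POLK, a translesion polymerase, CHTF8, of an alternative clamp loader, and ETAA1, an activator of ATR, rose in C-Myc-sh cells, at 0.70, 0.22 and 0.61, and had -0.16, 0.20 and 0.063 in Slc7a5-sh cells.

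Some of these smaller changes rested on single arrays. In Slc7a5-sh cells the call of POLD4 held only without Ctrl-sh replicate 2 or Slc7a5-sh replicate 3 among the 9 arrays left out in turn (adjusted p up to 0.187). That of POLE4 was lost without any Ctrl-sh array or Slc7a5-sh replicate 2 (up to 0.14), and that of PRIMPOL without Ctrl-sh replicate 2 or 3 or Slc7a5-sh replicate 1 or 3 (up to 0.108). In C-Myc-sh cells CHTF8 lost its call without Ctrl-sh replicate 2 or C-Myc-sh replicate 2 or 3 (up to 0.131). With all probe sets of a gene averaged, CHEK1 had 0.16 in Slc7a5-sh cells and was not called there.

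Genes of mitosis, which mark cells further along the cycle, were mostly lower in C-Myc-sh cells and mostly not called in Slc7a5-sh cells. Of 20 listed genes 3 were called lower and 5 higher in Slc7a5-sh cells, with a median of 0.04, and 19 were called lower and 0 higher in C-Myc-sh cells, with a median of -0.72 and also 0 higher at an unadjusted p under 0.05. In Slc7a5-sh cells these shares were 15% and 25%, where 11.0% of all tested genes were lower and 14.3% higher. In C-Myc-sh cells 26.2% of all tested genes were lower and 28.7% higher. The summed linear signal of the mitosis genes was 91797 to 97889 on Slc7a5-sh arrays, 56546 to 58132 on C-Myc-sh arrays and 91932 to 94956 on Ctrl-sh arrays. The Slc7a5-sh and Ctrl-sh ranges overlapped and the C-Myc-sh range lay below both. The part of cell cycle position in the changes of the 48 genes was not tested.

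**Figure D5:**
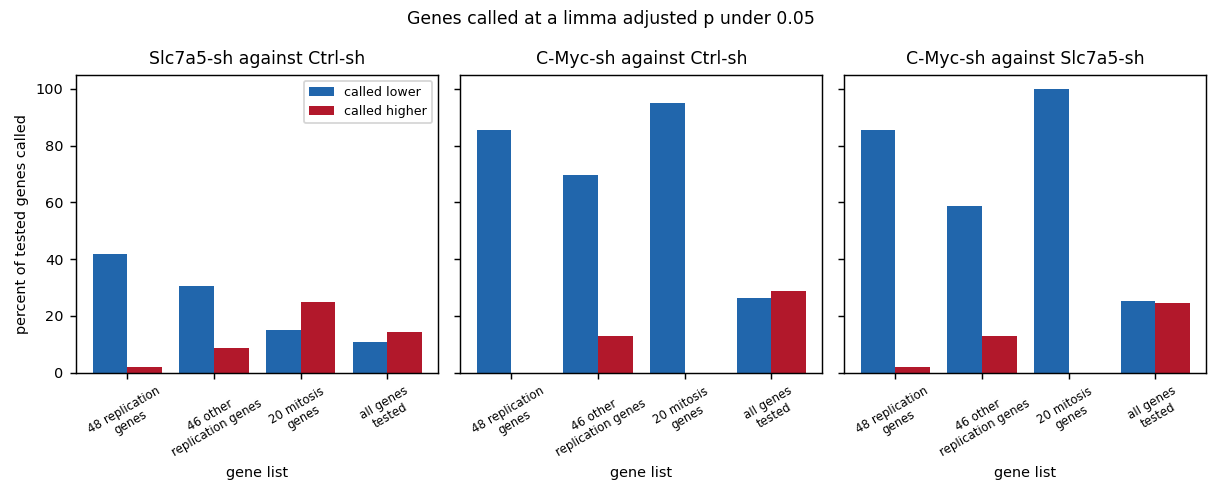
Percent of genes called lower (blue) and higher (red) among the 48 replication genes, 46 other replication genes, 20 mitosis genes and all 11250 tested genes, for Slc7a5-sh against Ctrl-sh, C-Myc-sh against Ctrl-sh and C-Myc-sh against Slc7a5-sh cells. In Slc7a5-sh cells 41.7% of the 48 genes were called lower, 15% of the mitosis genes and 11.0% of all tested genes. In C-Myc-sh cells the shares were 85.4%, 95% and 26.2%.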

How the data were processed

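RNA of 9 Daudi samples, copied and biotin-labelled from the 3' end per the labels' protocols, was measured on short-oligonucleotide arrays. The authors deposited log2 signals, 1 per probe set and array, and the submitters' processing notes name MAS5, without a version. That the base is 2 and that the arrays were scaled alike was inferred from the values, since on the linear scale the trimmed mean was about 497 on every array. The table held 54613 probe sets and 0 missing values. The platform annotation gave 41091 of them exactly 1 symbol, 1801 several and 11721 none, and those with several or none were not used. The kept probe set of a gene is its brightest one on average. A gene was tested where that mean reached the median of all probe-set means (5.77, or 54.6 linear). Of the 48 kept probe sets, 21 end in _s_at or _x_at and can bind related transcripts.

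Tests used R 4.3.3 and limma 3.58.1: lmFit with 3 group means over 9 arrays, eBayes with a mean-variance trend (8.21 prior and 6 residual degrees of freedom), two-sided, with p-values adjusted by Benjamini-Hochberg across all 11250 tested genes per contrast and calls at an adjusted p under 0.05. The script was tested on simulated data. The number of arrays, 3 per group, limits the precision. Same-numbered samples did not deviate together (correlations of -0.02 to 0.02 over 9 pairs), so numbers were not used as pairs. Values on each array are given for the lowest and highest gene of each complex in each comparison with Ctrl-sh, for genes called higher, and for MYC and SLC7A5. Of the other replication genes, those named have the 4 smallest p in a comparison with Ctrl-sh or were called higher. The members and lists were chosen with earlier results of these data known. Alternatives were quantile normalization, other filters, other probe-set choices, a floor, other variance models, 6 arrays, a block and leaving out each array.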

Additional observations from a re-analysis of the deposited data

How the results depend on the processing

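Across the alternatives with all 9 arrays, and those with the 6 arrays of a comparison, the number of genes called lower was 14 to 22 for Slc7a5-sh against Ctrl-sh, 28 to 43 for C-Myc-sh against Ctrl-sh and 29 to 42 for C-Myc-sh against Slc7a5-sh. The share of all genes called lower moved too, from 5.53% to 16.6%, 14.5% to 35.5% and 13.8% to 35.4% in that order. Its low end came with no filter and its high end with a 75th percentile filter. The lowest counts came with the 37 genes that had a probe set without an _s_at or _x_at ending, and for Slc7a5-sh also with averaged probe sets. For C-Myc-sh against Slc7a5-sh the lowest share of genes tested came with averaged probe sets, with 32 of 48 called lower (19.9% of all genes), against 29 of 37 (21.6%). With single arrays left out the ranges were 17 to 21, 41 to 43 and 39 to 41. Of all genes 8.2% to 11%, 24% to 26.7% and 23.1% to 24.8% were then called lower. The number called higher in Slc7a5-sh cells, 1, became 0 with no filter, with averaged probe sets, without _s_at and _x_at probe sets and with eBayes without a trend, and was 0 to 1 with single arrays left out. The share of all genes called higher there was 7.31% to 21.5% across the alternatives. Without the trend ORC3, MCM6, GINS2, POLA2 and POLD2 lost their calls in Slc7a5-sh cells. The numbers called higher in C-Myc-sh cells stayed 0 against Ctrl-sh and 1 against Slc7a5-sh under each alternative run. Of all genes 16% to 34.6% and 13.2% to 30.3% were called higher in those comparisons.

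Whether the replicate numbers pair the samples is not given in the sources used here. With the replicate number as a block 21, 42 and 41 genes were called lower and 1, 0 and 1 higher in the same order. Of all genes 10.7%, 26.2% and 24.9% were then called lower and 14%, 28.5% and 24.2% higher. No call was lost with the block, and LIG1 in Slc7a5-sh cells (-0.35, adjusted p = 0.0382) and ORC2 in C-Myc-sh cells (-0.31, adjusted p = 0.0298) were gained.

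With quantile normalization the sign turned for MCM7 (0.0030), RFC4 (0.040) and POLE3 (0.029) for Slc7a5-sh against Ctrl-sh and GMNN (0.059), MCM3 (0.093) and PCNA (0.049) for C-Myc-sh against Slc7a5-sh. With all probe sets of a gene averaged the sign turned for ORC4 (-0.043), ORC5 (-0.10), MCM7 (0.012), RFC3 (0.58) and POLK (0.011) for Slc7a5-sh against Ctrl-sh and ORC2 (0.13), RFC1 (0.19), RPA1 (0.15) and POLE4 (0.17) for C-Myc-sh against Slc7a5-sh. Without probe sets ending in _s_at or _x_at the sign turned for ORC4 (-0.19), POLA2 (0.066) and CHAF1A (0.29) for Slc7a5-sh against Ctrl-sh. With single arrays left out, the log2 change of Slc7a5-sh against Ctrl-sh spanned 0 with a range of -0.14 to 0.054 for MCM5, -0.14 to 0.29 for PRIM2, -0.057 to 0.032 for RFC4, -0.025 to 0.021 for TIPIN, -0.049 to 0.096 for ORC5, -0.057 to 0.36 for CDT1, -0.14 to 0.010 for DBF4, -0.046 to 0.0067 for POLE3 and -0.036 to 0.13 for ETAA1. In the comparison C-Myc-sh against Ctrl-sh 0 lay inside a range of -0.37 to 0.044 for CDT1. In the comparison C-Myc-sh against Slc7a5-sh 0 lay inside a range of -0.10 to 0.026 for ORC2, -0.044 to 0.11 for CHTF8 and -0.0065 to 0.089 for ORC4. Of these only PCNA, RFC3, RFC1, RPA1, POLA2 and CHAF1A were called in that comparison before, and the cause of each turn was not tested, except that a dim probe set entered the means of RFC3, RFC1 and RPA1. MAS5 signals near background vary widely on a log scale, so dim probe sets limit these checks.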

Other observations

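Among the genes that work around the fork, the 3 subunits of RNase H2, which cleaves ribonucleotides in DNA, fell in C-Myc-sh cells and 2 of them fell in Slc7a5-sh cells. They were chosen after their values were seen. RNASEH2A had 11.67, 11.21 and 11.50 in Slc7a5-sh cells, 10.47, 10.34 and 10.18 in C-Myc-sh cells and 11.97, 12.01 and 11.69 in Ctrl-sh cells, and its log2 change was -0.43 ± 0.12 (SE, adjusted p = 0.0147) in Slc7a5-sh cells and -1.56 ± 0.12 (SE, adjusted p = 3.22e-08) in C-Myc-sh cells. RNASEH2C had 11.34, 11.40 and 11.48 in Slc7a5-sh cells, 10.50, 10.71 and 10.58 in C-Myc-sh cells and 11.72, 11.75 and 11.81 in Ctrl-sh cells, with -0.35 ± 0.072 (SE, adjusted p = 0.00246) in Slc7a5-sh cells and -1.17 ± 0.072 (SE, adjusted p = 4.43e-09) in C-Myc-sh cells. RNASEH2B was called lower in C-Myc-sh cells, at -0.92, and had -0.20 in Slc7a5-sh cells (adjusted p = 0.0698). On every C-Myc-sh array the 3 genes lay below every Ctrl-sh array.

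The FACT histone chaperone, SSRP1 and SUPT16H, and the checkpoint phosphatase CDC25A, also chosen after their values were seen, were called lower in C-Myc-sh cells and not called in Slc7a5-sh cells. In Slc7a5-sh cells SSRP1 had -0.10, SUPT16H -0.082 and CDC25A 0.10. In C-Myc-sh cells SSRP1 had -0.94, SUPT16H -0.57 and CDC25A -1.45. The direct difference of CDC25A was -1.55 ± 0.12 (SE, adjusted p = 7.9e-08), the lowest of the 46 other replication genes. ATR, the kinase at the head of the replication checkpoint, had 12.07, 12.10 and 12.29 in Slc7a5-sh cells, 12.17, 12.26 and 12.15 in C-Myc-sh cells and 12.25, 12.09 and 12.13 in Ctrl-sh cells, with overlapping groups and a change of -0.0028 for Slc7a5-sh and of 0.038 for C-Myc-sh.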
